A study of Mus musculus with 34 samples.

Results

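Epididymal fat of mice fed a high fat diet in the fourth high fat generation (HF4) was set directly against that of mice on a normal diet (STD) on 2 two-colour arrays, of 34 in the series and 12 in its first experiment. The arrays were chosen as those whose titles pair HF4 with STD. They form a dye swap: HF4 was labelled with Cy3 and STD with Cy5 on one array, and the dyes were exchanged on the other. HF4 mice were offspring of HF3 mice, which in turn were offspring of HF2 mice, and STD was the group on the normal diet. HF0, used below as a stepping stone, was the first generation on the high fat diet and came from STD parents. Strain, age, the number of animals in an extract, and whether arrays of different pairings shared an extract are unknown here. Each direct comparison was counted as 1 extract per group, measured on 2 arrays, so no p-value was computed from these arrays alone and both values are given in place of a mean with an SD.

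Each value is a log ratio, taken as log2, of HF4 over STD after centring each array on its median. The deposited ratios were read as Cy5 over Cy3. No source used here names the numerator dye, so "positive" and "negative" are used throughout, and every sign turns if the ratio was Cy3 over Cy5. No value was turned into a fold. The deposited table holds no intensities, so a ratio does not show whether a gene, fat markers included, was above background.

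Epididymal fat is a visceral depot attached to the testis and epididymis. Its adipocytes store triglyceride in droplets and secrete adipokines such as leptin, adiponectin and resistin, while the blood vessels, fibroblasts, macrophages and lymphocytes around them make up much of the cell number. Interferons act on many of these cells through STAT and IRF factors, which bind short promoter elements and switch on antiviral and antigen presentation genes. Male germ cells and the epididymal epithelium, which lie next to this depot, express large sets of genes that are hardly used elsewhere. In bulk tissue, fewer cells of a type and less RNA per cell cannot be told apart.

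Of the interferon response and antigen presentation genes past the size rule described below, 4 held the interferon-stimulated response element in the 250 bases before their start sites. They were 3 of 7 interferon response genes and 1 of 3 antigen presentation genes past the rule with a promoter to search. The element was searched on both strands as GAAA, any 2 bases, and GAAA again. Its match nearest the start site, with any match that overlaps it, is shown in capitals within its surroundings, read 5′ to 3′ on the gene's strand, from the RefSeq promoter table of build GRCm38.p6.
Ifit1 (chr19:34640779-34640838, plus strand): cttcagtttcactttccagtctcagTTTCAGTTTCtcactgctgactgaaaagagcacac
Oas1a (chr5:120907526-120907570, minus strand): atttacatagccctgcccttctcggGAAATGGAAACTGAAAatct
Bst2 (chr8:71537562-71537627, minus strand): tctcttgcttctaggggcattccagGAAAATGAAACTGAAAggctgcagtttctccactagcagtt
H2-T23 (chr17:36032791-36032850, minus strand): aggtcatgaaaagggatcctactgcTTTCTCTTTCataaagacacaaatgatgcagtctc
All 4 genes were negative on both arrays, as was every member of both lists past the size rule. Ifit1 encodes an antiviral protein that binds foreign RNA, Oas1a an enzyme that senses double-stranded RNA, Bst2 (tetherin) a membrane protein that holds virus particles at the cell, and H2-T23 a non-classical MHC class I molecule. The nearest match ended 75 bases before the start site in Ifit1, 4 in Oas1a, 114 in Bst2 and 114 in H2-T23. Oas1a and Bst2 each held 2 overlapping matches. Ifit1 held 2 separate ones, of which the farther stands in lower case in the printed stretch.

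The 25344 probes gave 22879 features, of which 18617 carried a gene symbol. On both arrays 5765 features (25.2%) were positive and 5424 (23.71%) negative, and 11690 had opposite signs. Pearson's r between the turned arrays was 0.36 across features, which are not independent replicates. Dye bias moved with this disagreement: the difference between the arrays followed the gene-wise dye effect of the other 10 arrays of experiment 1 with r = 0.81, and once that effect was subtracted, the arrays had r = 0.70 and the same sign for 65.29% of features. The 5 genes with the widest gap between the arrays were Bmp8a (3.88 with HF4 in Cy3 and -4.02 with HF4 in Cy5), Rps6kc1 (2.42 and -2.34), Zzef1 (-0.72 and 3.63), Dmrt1 (-1.29 and 3.28) and Lmcd1 (-0.98 and 3.17), for which no direction can be given.

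**Figure D1:**
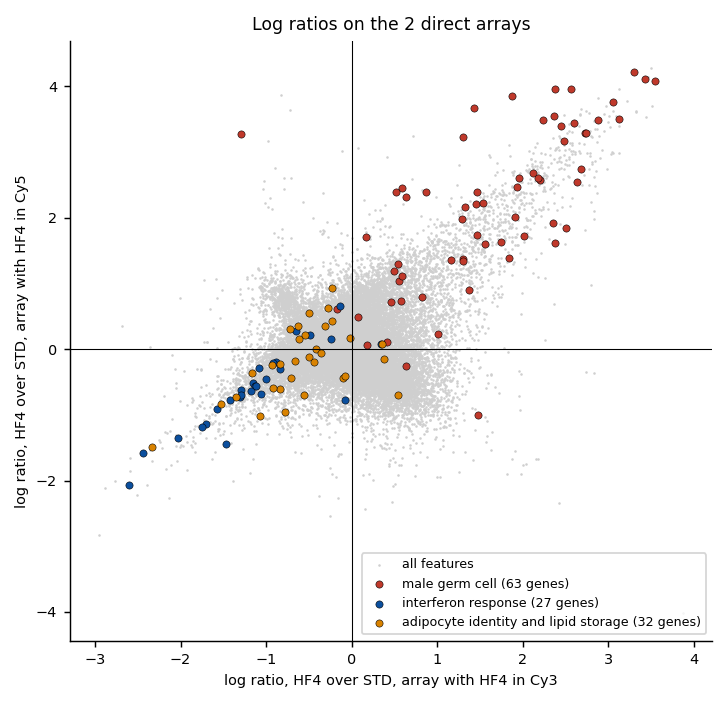
Each grey point is 1 of 22879 features, with its log ratio of HF4 over STD on the array with HF4 in Cy3 (x axis) and on the array with HF4 in Cy5 (y axis). Of the 63 male germ cell genes 59 are positive on both axes, 22 of 27 interferon response genes are negative on both, and so are 18 of 32 adipocyte genes.

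A feature was counted when both arrays had the same sign and their mean was at least 1 in size. This size rule is a description and no test. It was met by 1089 positive features (4.76% of all) and 249 negative ones (1.09%), of which 962 and 216 carried a symbol. The positive features also reached higher values: the largest mean was 3.89, of the sperm linker histone H1f7, and the smallest was -2.89, of the epididymal cystatin Cst11. Just inside the rule lay Myo16 (mean 1.001) and 4930555G07Rik (-1.002), and just outside it Olfr250 (0.9998) and Gltpd2 (-0.9997).

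The same difference can be reached without the direct arrays by adding 2 other pairings: HF4 with HF0 plus HF0 with STD in experiment 1 (the route through HF0), HF4 with HF3 plus HF3 with STD in experiment 1 (the route through HF3), and HF4 with HF0 plus HF0 with STD in experiment 2. Experiment 1 extracted RNA with Trizol and experiment 2 with Qiagen reagents. Each route was set beside the direct mean, and why they differed was not tested. The direct mean and the route through HF0 differed by at least 1 in 1551 features (6.779%), the direct mean and the route through HF3 in 892 (3.899%), and the direct mean and the experiment 2 route in 1604 (7.011%). The SD of these differences over features was 0.55, 0.45 and 0.57. It was 0.54 for the direct means themselves and 0.37 for each direct array's distance from their mean (0.22 after the dye effect was subtracted). A difference from a route carries the array noise of the direct pairing and of both added pairings. Its SD is therefore not on the scale of a single pairing, and the share due to array noise was not tested.

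The pattern is shown array by array for 3 genes. Spz1, a transcription factor of spermatogenic cells, was 3.55 and 4.08 on the direct arrays, 3.64 and 3.29 for HF4 over HF0, and 0.08 and -0.25 for HF0 over STD. It was -0.05 and -0.12 for HF3 over STD but 4.58 and 4.97 for HF3 over HF0. HF3 thus lay near 0 against STD on one pair of arrays and far from 0 against HF0 on another, although HF0 lay near 0 against STD. Cd36, the fatty acid transporter of adipocytes and endothelium, was -2.33 and -1.50 on the direct arrays, 1.63 and 1.24 for HF4 over HF0, and 0.65 and 0.30 for HF0 over STD. Its direct value and its sum through HF0 have opposite signs. Cst11 was -2.95 and -2.83 on the direct arrays, -3.45 and -3.50 for HF0 over STD, and between 0.00 and 0.23 in size for HF3 over STD. Within these pairings the arrays of a dye swap were farthest apart for Cd36 on the direct arrays, at -2.33 and -1.50. The gaps described here were wider than that and lay between pairings. What set the pairings apart was not tested.

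**Figure D2:**
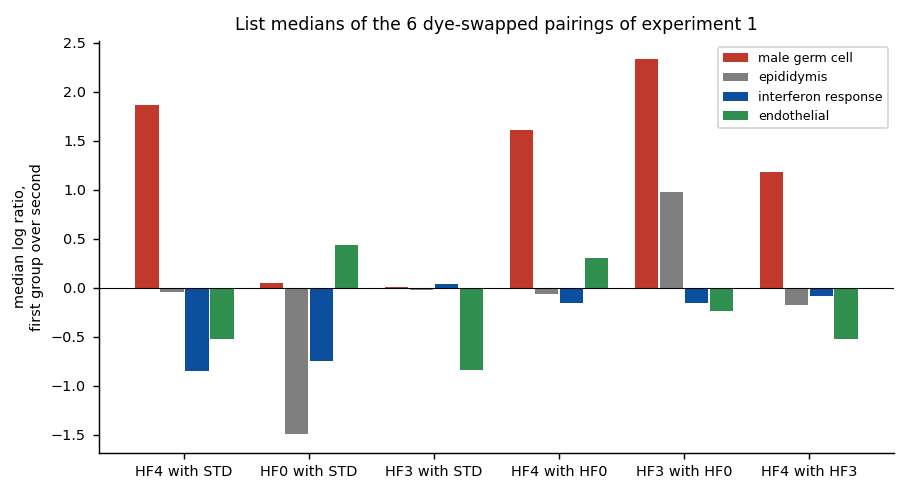
Bars give the median log ratio of 4 gene lists, first group over second, for the 6 dye-swapped pairings of experiment 1 (mean of both arrays). The male germ cell median was 1.87 for HF4 over STD and 2.33 for HF3 over HF0, but 0.01 for HF3 over STD and 0.05 for HF0 over STD.

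Male germ cell genes had the highest median of the 38 lists. Of 68 genes on the list, 63 were measured, 59 were positive on both arrays, none was negative on both, and 47 were past the size rule against 4.76% of all features. The list's median was 1.54 with HF4 in Cy3 and 2.22 with HF4 in Cy5, giving 1.87 for the mean, beside -0.00 over all features. It was 1.86 through HF0, 1.37 through HF3 and 1.08 in experiment 2. The remaining 4 genes had opposite signs on the arrays: Brdt, Stra8, Nanos2 and Dmrt1.

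Among genes of germ cells and meiosis, Ddx4, the VASA helicase of germ cells, was 2.21 and 2.58, and Sycp3, which builds the axis of meiotic chromosomes, was 2.63 and 2.55. Dazl, an RNA-binding protein of germ cells, was 1.30 and 1.37. The arrays were close to each other for all 3. Piwil1, which binds piRNAs and silences transposons, was 3.13 and 3.50, and its relative Piwil2 was 1.96 and 2.61.

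Genes of the maturing sperm head included the protamines. Prm1 and Prm2, which replace histones in sperm chromatin, were 1.43 and 3.67, and 0.59 and 2.45. The transition proteins, which precede the protamines, were 1.87 and 3.86 (Tnp1) and 2.24 and 3.48 (Tnp2). All 4 of these were clearly lower with HF4 in Cy3 than with HF4 in Cy5. The histone variant Hils1 was 2.69 and 2.74, and Spaca1, an acrosome membrane protein, was 2.73 and 3.29. Izumo1, which binds the egg, was 1.84 and 1.38, and Plcz1, the sperm factor that starts calcium waves in the egg, was 2.12 and 2.68. The sperm tail was represented by Odf2 of the outer dense fibres (2.45 and 3.40), Akap4 of the fibrous sheath (2.36 and 1.92), Ropn1l (3.06 and 3.77) and the sperm calcium channel Catsper1 (1.30 and 1.34). Energy supply of sperm added Ldhc (2.37 and 3.54), Pgk2 (2.48 and 3.16) and Gapdhs (1.75 and 1.63), glycolytic enzymes with isoforms restricted to germ cells.

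Of the 12 most positive genes ranked by the lower of their arrays, 4 were on the male germ cell list: Spz1 and Piwil1, given above, Clec2m at 3.44 and 4.11, and Pdcl2, which is needed for sperm formation, at 3.31 and 4.22. The others included H1f7 at 3.50 and 4.28, Galntl5 at 3.52 and 3.71, Kif2b at 3.46 and 4.14, and Ccer1 at 3.44 and 3.54. In experiment 2, Plcz1 was 2.69, Crisp2 2.72 and Ddx4 2.15, while Tnp1 was 0.29, Prm1 0.28, Akap4 -0.09 and Pgk2 -0.89. Unnamed clones of the RIKEN testis library series were set apart after the values were seen. Of these, 189 of 983 (19.23%) were positive past the size rule, against 17 of 735 other RIKEN clones (2.313%). The median of the testis series was 0.27, against 1.87 for the male germ cell list.

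Lists for other cells of the male tract had medians nearer 0. Over all features, 25.2% were positive and 23.71% negative on both arrays, and 4.76% and 1.09% were past the size rule. Of 20 measured genes of testis somatic cells, 11 were positive and 3 negative on both arrays, with a median of 0.28 and 2 genes past the size rule, Aard (1.15 and 1.39) and the Sertoli cell homeobox gene Rhox5 (0.33 and 2.12). Star, which brings cholesterol into Leydig cell mitochondria, was 0.47 and 1.13. Of 14 seminal vesicle and prostate genes none was past the rule, and their median was -0.00. The 30 measured epididymis genes split: 10 were positive and 10 negative on both arrays, 5 were past the rule on the negative side and 4 on the positive side, and their median was -0.04.

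The 5 negative epididymis genes had arrays close to each other. Cst11, a cystatin of the epididymal epithelium, was -2.95 and -2.83. Defb20, a beta-defensin, was -2.50 and -2.21. The epididymal lipocalins Lcn8 and Lcn9 were -2.40 and -2.07, and -1.93 and -1.41, and Ly6g5c was -1.41 and -1.28. The other routes were far apart for them: Cst11 was -3.59 through HF0, 0.14 through HF3 and -6.72 in experiment 2, and Lcn8 was -2.31, 0.26 and -5.30. The positive members were Spink2, an acrosomal protease inhibitor that germ cells also make, at 1.00 and 1.64, the gap junction gene Gjb2 at 1.43 and 0.75, the sperm-binding protein gene Bsph2 at 0.92 and 1.43, and Spink10 at 0.87 and 1.24. Spink2 was positive on all routes (1.18, 0.98 and 0.66). Bsph2 and Spink10 were negative on all of them.

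Interferon response genes had the lowest median of the 38 lists. Of 27 measured, 22 were negative on both arrays and 1 positive, and 9 were past the size rule, against 1.09% of all features. The median was -1.13 with HF4 in Cy3 and -0.62 with HF4 in Cy5, and -0.85 for the mean. It was -0.89 through HF0 but -0.12 through HF3 and 0.01 in experiment 2.

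Irf7, the factor that amplifies type I interferon production, had the lowest values of the list, -2.60 and -2.06. HF0 over STD gave -1.64 and -2.05 for it and HF4 over HF0 gave -0.33 and -0.51, while HF3 over STD gave 0.39 and 0.05. Bst2 was -2.44 and -1.57 and Oasl2 -2.03 and -1.35. The related synthetases Oas1a, at -1.47 and -1.45, and Oas2, at -1.75 and -1.18, followed. Ifit1 was -1.70 and -1.15, Ifit2 -1.31 and -0.72, and Usp18, which removes ISG15 from proteins and dampens interferon signalling, -1.57 and -0.91. Psmb8, a subunit of the immunoproteasome, was -1.42 and -0.78. All 9 were negative through HF0. Of these 9, Bst2, Oas1a, Usp18 and Psmb8 were negative on the other routes too, with Bst2 at -1.19 through HF3 and -0.09 in experiment 2. Oas2 (0.26 and 0.80) and Oasl2 (0.30 and 0.16) were positive through HF3 and in experiment 2, and Irf7, Ifit1 and Ifit2 on one of them. Genes outside the list that belong to the same response included Lgals3bp (-2.33 and -1.70), Xaf1 (-1.73 and -1.20) and Rtp4 (-1.75 and -0.80). Xaf1 and Rtp4 were chosen for 1 sign on all routes. Lgals3bp, chosen by its arrays, was -1.38 through HF0, 0.02 through HF3 and -0.59 in experiment 2.

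Antigen presentation genes lay on the same side. Of 22 measured, 12 were negative and none positive on both arrays, against 23.71% and 25.2% of all features. The median was -0.57, and 4 were past the size rule, against 1.09% of all. Cd74, the invariant chain that escorts MHC class II molecules, was -2.23 and -1.41. The class II chaperone gene H2-DMb1 was -1.45 and -0.65, the class I gene H2-T23 -1.79 and -1.17, and Psmb8, counted above, is shared with this list. The list's median was -0.49 through HF0, -0.03 through HF3 and -0.06 in experiment 2, where Cd74 was 0.73.

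**Figure D3:**
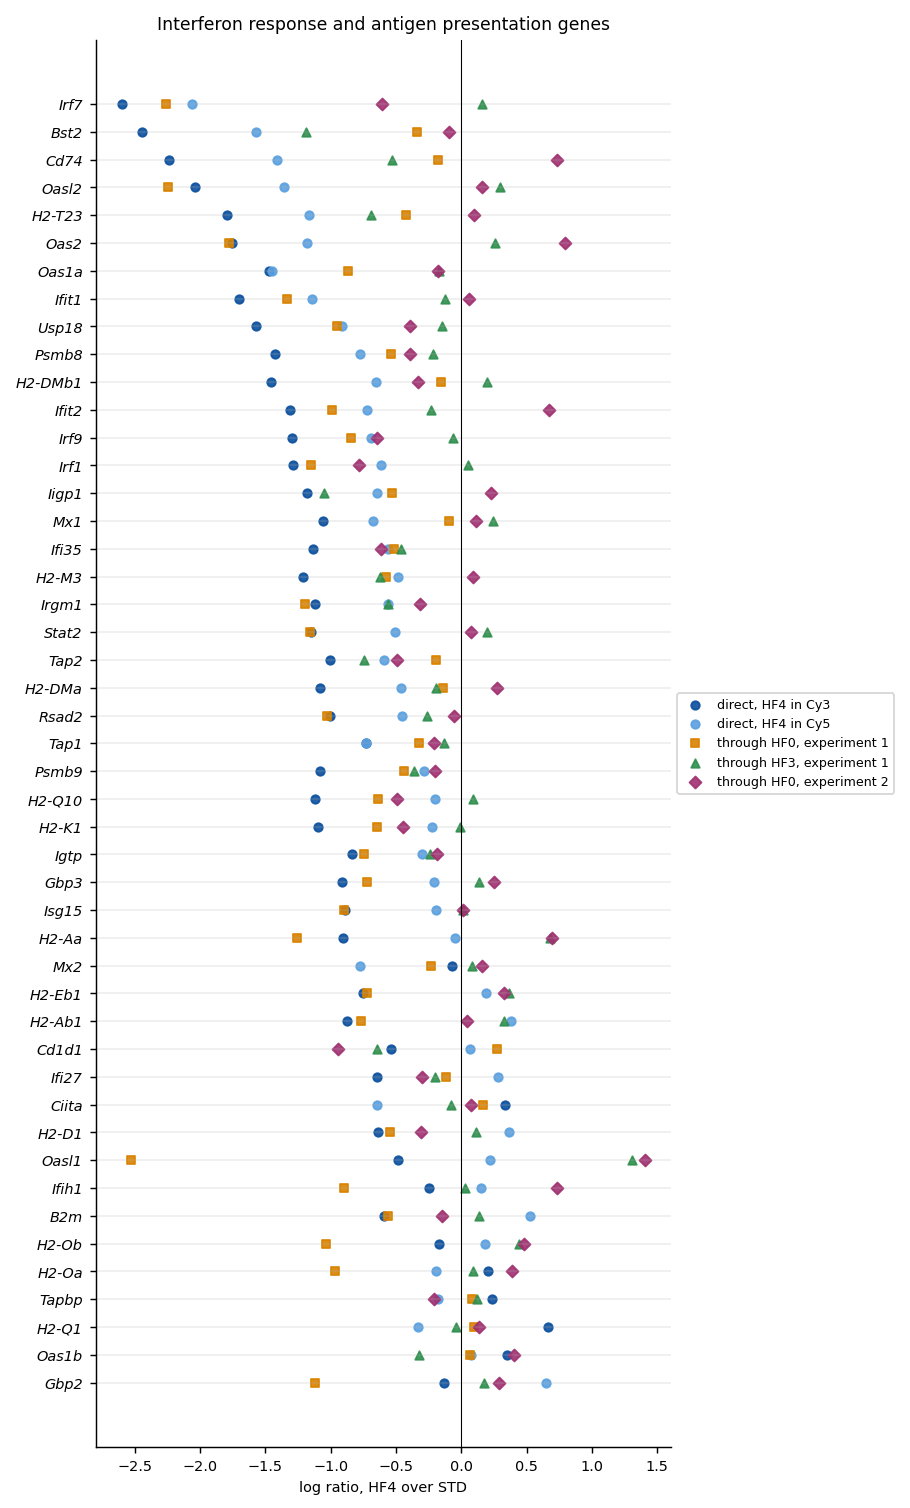
Each row is a gene of the interferon response or antigen presentation list, sorted by its direct mean. Blue circles are the 2 direct arrays and the other symbols the 3 other routes, all as log ratios of HF4 over STD. Irf7 is lowest at -2.60 and -2.06, where the route through HF3 gives 0.16 and experiment 2 gives -0.61.

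The share of promoters with the interferon element was then counted, without a test. It was present in 474 of 14738 measured genes with a promoter in the table (3.22%), in 17 of 173 negative genes past the size rule (9.83%) and in 17 of 771 positive ones (2.2%). In the interferon list 10 of 20 held it, and 3 of 7 of its members past the rule. In the antigen presentation list 2 of 16 held it, and 1 of 3 past the rule. The other 4 motifs were counted, on both strands, all chosen with the values known. The gamma-activated site (TTCC, any base, GGAA), bound by STAT dimers, was in 1.18% of all, 4.62% of negative and 0.908% of positive genes. The NF-kappaB site (GGGAC followed by TTTCC) was in 0.21%, 0.578% and 0.13%. The cAMP response element TGACGTCA, which germ cell factors use in many spermatid genes, was in 2.4%, 2.31% and 2.46%, and its 5-base part TGACG in 24.8%, 19.7% and 22.4%. Of 40 male germ cell genes past the rule with a promoter, 1 held the full cAMP element, Izumo1, shown with the element in capitals.
Izumo1 (chr7:45621690-45621747, plus strand): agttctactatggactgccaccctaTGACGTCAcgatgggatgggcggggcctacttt
A match is a description of these letters in this window.

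Adipocyte genes had a negative median nearer 0 than those of the interferon response and antigen presentation lists. Of 32 measured genes of adipocyte identity and lipid storage, 18 were negative and 1 positive on both arrays, against 23.71% and 25.2% of all features. The median was -0.25, and 4 were past the size rule on the negative side, against 1.09% of all. Cd36 was -2.33 and -1.50. Cidec, a droplet protein that fuses lipid droplets, was -1.53 and -0.84, Retn (resistin) -1.35 and -0.73, and Aqp7, the glycerol channel, -1.08 and -1.02. Pparg, the master regulator of adipocyte identity, was -0.78 and -0.95 and stopped short of the rule. Adiponectin (Adipoq) was -1.16 and -0.37, leptin (Lep) -0.56 and -0.69, and the insulin-regulated glucose carrier Slc2a4 -0.91 and -0.58.

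Through HF0 this group turned. The list's median was 0.40 on that route, -0.64 through HF3 and -0.40 in experiment 2. Cd36 was 1.91 through HF0, -3.18 through HF3 and -1.13 in experiment 2, Pparg was 0.37, -2.21 and -0.36, and Lep was 1.46, -0.25 and -0.44. Cidec was 0.42, -2.20 and -1.82, and Retn 0.68, -2.61 and -1.23. The sign of these 5 genes in HF4 over STD therefore depended on the pairing read, within experiment 1.

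Fat synthesis genes had a median near 0. Of 23 lipogenesis genes, 9 were negative and 2 positive on both arrays, against 23.71% and 25.2% of all features, with a median of -0.05. Thrsp, which promotes fatty acid synthesis, was the 1 member past the rule at -1.29 and -0.89. Over all features 1.09% were past it on the negative side. Scd1, the stearoyl-CoA desaturase, was -1.16 and -0.16, and Fasn, fatty acid synthase, had opposite signs, 0.51 and -0.61. In cholesterol synthesis 7 of 19 genes were negative and 4 positive on both arrays and none was past the rule. Hmgcs1 was 0.33 and 0.93 and the regulator Srebf2 -0.41 and -0.83. Of 7 measured genes tied to fat mass expansion none was past the rule. Mest was -0.52 and -0.05, and Sfrp4, a secreted Wnt inhibitor, 0.40 and 1.01.

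Among fuel oxidation genes Cpt1b stood apart. Of 24 fatty acid oxidation genes, 7 were negative and 2 positive on both arrays, against 23.71% and 25.2% of all features. The 1 member past the rule was on the positive side, against 4.76% of all. Cpt1b, the muscle-type gate of fatty acid entry into mitochondria, was 1.40 and 1.47, and 0.47, 1.08 and 0.51 on the other routes. Hk2, the hexokinase of muscle and fat, was 0.96 and 1.90 on the direct arrays but -1.77 through HF0, 2.26 through HF3 and 0.96 in experiment 2. The 32 measured respiratory chain genes had medians of -0.23 with HF4 in Cy3 and 0.49 with HF4 in Cy5, so the list had no common sign. Ucp1, the uncoupling protein of brown fat, had opposite signs at -0.72 and 0.11. Among detoxification enzymes, Cyp2e1 was -1.72 and -0.90, and -0.48, -3.11 and -1.88 on the other routes. It was also chosen for 1 sign on all routes.

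Endothelial genes had a lower median than adipocyte genes on the direct arrays, a gap that was not tested. Of 21 measured, 13 were negative and 3 positive on both arrays, against 23.71% and 25.2% of all features. The median was -0.52. Kdr, the main VEGF receptor of blood vessels, was -1.67 and -1.04, Cldn5, a tight junction protein, -1.65 and -0.72, and the receptor Tie1 -1.31 and -0.93. Selp, the adhesion molecule P-selectin that activated endothelium and platelets expose, stood apart at 1.11 and 1.82. The list changed side with the route as the adipocyte list did. Its median was 0.75 through HF0, where 20 of 21 genes were positive, and -1.41 through HF3, where all 21 were negative. In experiment 2 it was -0.93. Kdr was 1.36, -2.56 and -1.43. Of 18 smooth muscle and pericyte genes, only Mylk, the myosin light chain kinase, was past the rule, at -1.35 and -0.88. Over all features 1.09% were past it on the negative side.

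**Figure D4:**
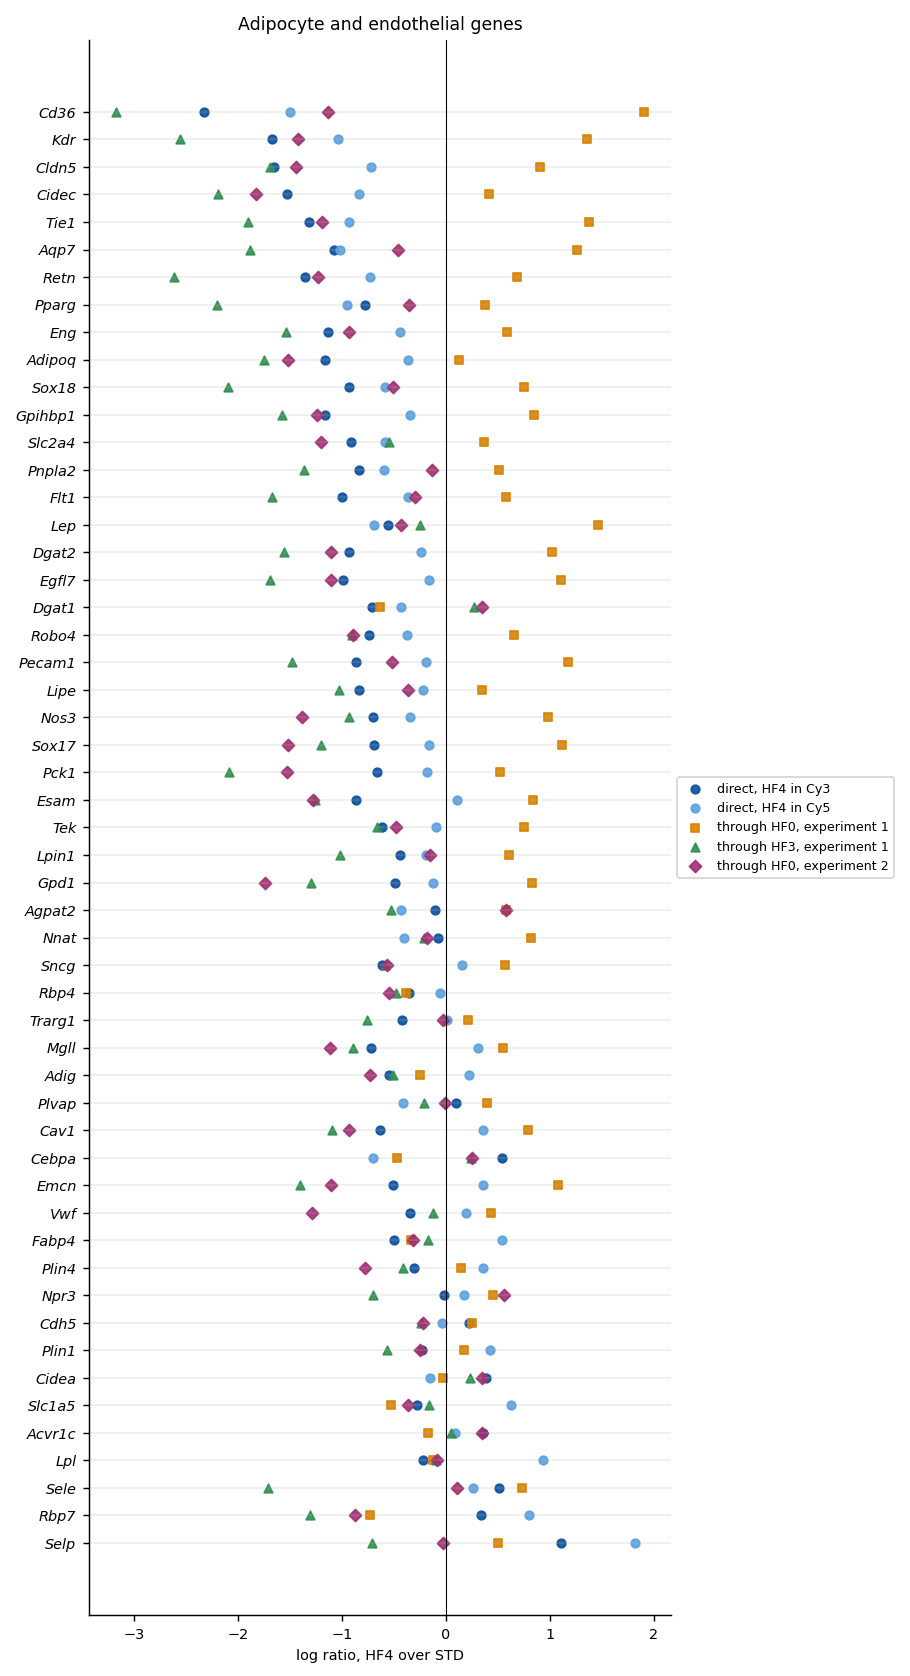
Each row is an adipocyte or endothelial gene, sorted by its direct mean, with the 2 direct arrays (blue circles) and the 3 other routes as log ratios of HF4 over STD. Orange squares (through HF0) lie mostly right of 0 and green triangles (through HF3) mostly left, with Cd36 at 1.91 and -3.18.

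Macrophage and T cell lists had negative medians on the direct arrays. Over all features, 23.71% were negative and 25.2% positive on both arrays, and 1.09% were past the size rule on the negative side. Of 28 macrophage genes, 14 were negative and 3 positive on both arrays, with a median of -0.34. Past the rule were C1qa (-2.18 and -1.26) and C1qc (-2.25 and -1.39), chains of the first complement component. Their partner C1qb was -1.13 and -0.31. The general marker Adgre1 was -0.78 and -0.02, and Mmp12, a macrophage elastase, had opposite signs at -0.18 and 0.47. The list's median was -0.37 through HF0, where 22 of 28 genes were negative. It was 0.50 through HF3 and 0.76 in experiment 2, where all 28 genes were positive. Mmp12 was 2.36 through HF0 and 2.81 in experiment 2. Complement C4b was -1.81 and -1.04. Of 18 T and NK cell genes, 14 were negative and 2 positive on both arrays, with a median of -0.32. The 1 gene past the rule was the cytotoxic granule gene Nkg7 (-1.16 and -0.92). The T and NK cell median was -0.61 through HF0 and 0.06 through HF3. In experiment 2 it was 0.42, with 16 of 18 genes positive and Nkg7 at 0.62. The matrix protease Mmp9 of neutrophils was -1.86 and -0.77. It was negative on all routes, but was also chosen for 1 sign on all of them.

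Inflammatory mediators had no common sign: 11 of 32 were positive and 8 negative on both arrays, against 25.2% and 23.71% of all features. Their median was -0.20 with HF4 in Cy3 and 0.75 with HF4 in Cy5. Il6 was 1.43 and 2.37, Ptgs2, the inducible cyclooxygenase, 1.14 and 1.75, and Il1b 0.71 and 1.67. All 3 were positive on both arrays. Tnf was 0.03 and 1.02, and the monocyte chemokine Ccl2 had opposite signs, -0.33 and 0.82. The T cell chemokine Ccl5 was -1.44 and -0.68. Il6 was -1.79 through HF0, 1.93 through HF3 and 3.13 in experiment 2, and Tnf -2.64, 2.66 and 0.80.

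**Figure D5:**
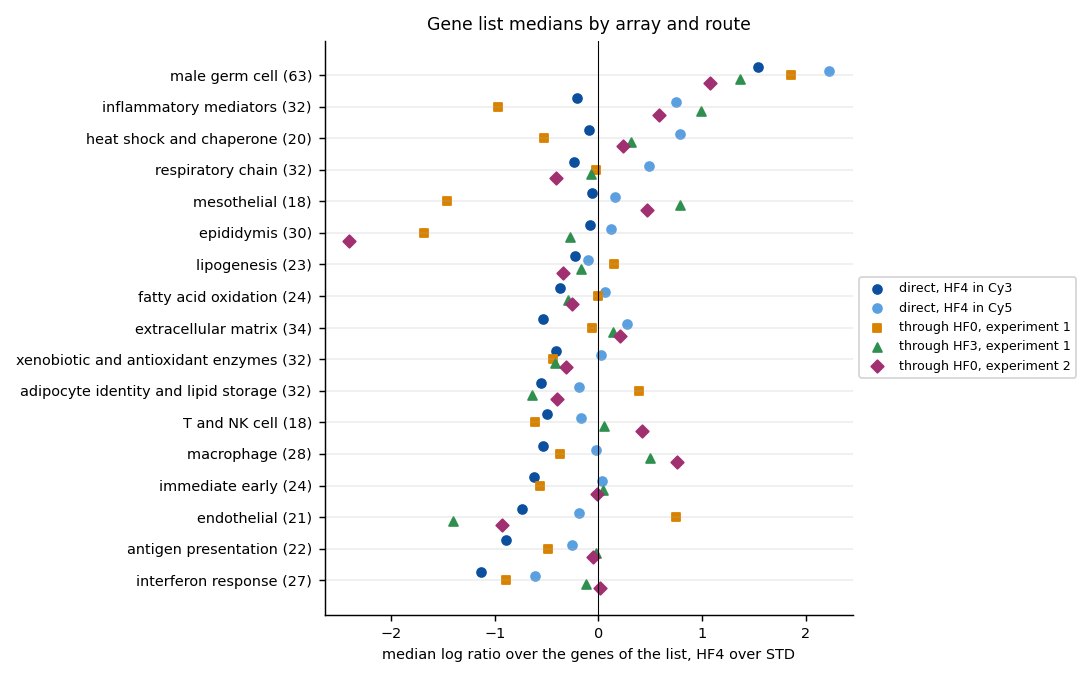
Symbols give the median log ratio of HF4 over STD for 17 gene lists (number of measured genes in brackets) on each direct array and on the 3 other routes. The male germ cell list is positive for all 5 symbols, between 1.08 and 2.22, and the interferon response list is negative for all but experiment 2, where it is 0.01.

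Other genes at the negative end were of mixed kinds. Col1a1, a chain of type I collagen, was -2.59 and -1.86. With it, Col6a2 (-1.49 and -0.57) and the membrane protease Mmp14 (-1.40 and -0.83) were past the rule. That side thus held 3 of 34 matrix genes, against 1.09% of all features. The matrix list's median was -0.53 with HF4 in Cy3 and 0.27 with HF4 in Cy5. Pfn1, which feeds actin filaments, was -2.88 and -2.11, but 0.70 through HF0, -1.21 through HF3 and -0.23 in experiment 2. The transcription factors Nfix, at -2.14 and -2.27, and Klf13, at -2.11 and -1.76, and the Wnt pathway coactivator Bcl9l, at -2.17 and -1.82, had closely matched arrays. All 3 were positive through HF0, at 0.84, 0.58 and 0.28. They were negative through HF3 (-2.30, -1.58 and -2.34) and in experiment 2 (-0.05, -1.075 and -1.09). The skeletal muscle actin Acta1 was -1.93 and -1.83, and -1.83, -0.72 and -1.40 on the other routes. It was also chosen for 1 sign on all routes. Of 17 measured skeletal muscle genes Acta1 was the only one past the rule, against 1.09% of all features on the negative side. The immediate early genes Klf2 (-2.10 and -1.07) and Klf6 (mean -1.21) were past the rule. Of 24 measured genes of their list, 10 were negative and none positive on both arrays, against 23.71% and 25.2% of all features.

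At the positive end outside the germ cell list, Nefl, the light neurofilament, was 2.48 and 3.11 and positive on all routes (2.84, 2.10 and 1.22). The mitotic kinase gene Bub1 was 1.29 and 1.00, and the phosphatase gene Cdkn3 1.79 and 1.95. They were the only 2 of 29 measured cell cycle genes past the rule, against 4.76% of all features on the positive side. The median of that list was 0.13. The keratins Krt8 (0.92 and 1.59) and Krt18 (0.73 and 1.48) were past the rule in the mesothelial list, whose median was -0.03. Krt8 was -2.66 through HF0, 1.39 through HF3 and -1.51 in experiment 2, and Krt18 -3.32, 1.23 and -2.04. Prom1, a membrane protein of many epithelia, had 1.06 and 1.90 on the direct arrays and -1.22, -0.94 and -2.12 on the other routes.

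The difference between HF4 and STD was also tested over both experiments with limma. With 1 value per group and experiment, 12 in all, and the experiment as a block, 97 features were positive (0.424% of 22879) and 3 negative (0.0131%) at a Benjamini-Hochberg adjusted p of 0.05. The 3 negative ones were Retn (-1.12 ± 0.12 (SE), adjusted p = 0.040), Cyp2e1 (-1.77 ± 0.19, adjusted p = 0.040) and Mylk (-1.37 ± 0.16, adjusted p = 0.046). Of the 63 male germ cell genes 8 passed, all positive: Sycp3 (2.01 ± 0.13, adjusted p = 0.033), Spaca1, Crisp2, Spaca7, Plcz1, Pdcl2, Ddx4 and Catsper1. Bub1 passed as well, with 1.15 ± 0.12 (adjusted p = 0.040). No interferon response or antigen presentation gene passed, and Irf7 had -1.26 ± 0.23 (adjusted p = 0.094). These calls rested on both HF4 values: without that of experiment 1 or that of experiment 2, limma called none, with 2339 and 1385 features at an unadjusted p under 0.05. The lone value of the group is then assumed to vary like the other groups. Without the STD value of experiment 1 there were 1001 positive and 1138 negative calls, and without that of experiment 2 there were 810 and 88. Only STD, HF0, HF3 and HF4 had a value in both experiments. These p-values therefore measure how far the values of these groups disagreed between the experiments. The labels do not say that the extracts are separate animals, so that spread may be technical. Within an experiment the group values were estimated from shared pairings, so they are not independent, which the fit did not take into account.

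A second limma fit, added after the values were seen, took the 16 pairings (mean of the arrays of each dye swap) as the unit, with no term for experiment, and so counted the spread between pairings as error. The pairings share groups, and possibly extracts, so they are not independent and its p-values may be too small. It called 959 features positive (4.19%) and 209 negative (0.914%). Of the male germ cell genes 37 of 63 passed, among them Spz1 (2.91 ± 0.59, adjusted p = 0.023) and Piwil2 (1.68 ± 0.38, adjusted p = 0.030). Of the interferon response genes 9 of 27 passed, all negative, with Irf7 at -1.45 ± 0.33 (adjusted p = 0.030), Bst2 at -1.26 ± 0.33 (adjusted p = 0.047), Usp18 at -0.78 ± 0.17 (adjusted p = 0.026) and Ifit1 at -0.90 ± 0.23 (adjusted p = 0.042). Of 22 antigen presentation genes 4 passed, all negative. Adipoq (-0.93 ± 0.25, adjusted p = 0.048), Cidec (-1.26 ± 0.28, adjusted p = 0.028), Agt (-0.75 ± 0.13, adjusted p = 0.017) and Cyp2e1 (-1.75 ± 0.28, adjusted p = 0.016) were negative, and Ptgs2 (1.42 ± 0.36, adjusted p = 0.041), Cpt1b (0.92 ± 0.23, adjusted p = 0.037), Sfrp4 (1.12 ± 0.27, adjusted p = 0.033), Nefl (2.37 ± 0.49, adjusted p = 0.023) and Bub1 (1.14 ± 0.18, adjusted p = 0.016) positive. Cd36 (-1.52 ± 0.66, adjusted p = 0.21), Kdr (-1.30 ± 0.46, adjusted p = 0.13) and Il6 (1.27 ± 0.56, adjusted p = 0.22) did not pass. Without the 2 direct arrays the same limma fit called no feature in either direction, with 2706 at an unadjusted p under 0.05.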

How the data were processed

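The deposited table gives the authors' log ratios, taken here as log2, for 25344 probes on 34 arrays with no missing value. No source used here names the background correction, normalization, log base or numerator dye. The highest value, 7.99, exceeds the 4.82 possible in base 10 with 16-bit intensities, and a natural log was not excluded. The number of arrays limits the precision. Probes were named by the platform annotation (21082 with 1 symbol, 30 with several, 4232 with none), those of 1 gene were averaged, and array medians were set to 0. The direct arrays were turned and averaged. Tests used limma 3.58.1 in R 4.3.3 with Benjamini-Hochberg adjustment, on least squares group values within each experiment with a term for experiment (degrees of freedom 3 residual, 3.16 prior), or on 16 pairing means (9 and 3.81). Both limma fits were run on simulated data whose noise was independent between pairings. That run cannot show whether the p-values hold where pairings share extracts. Python 3.11.15, pandas 2.3.3, numpy 2.4.6 and matplotlib 3.10.9 did the rest.

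Genes were named by rule: the 12 extreme genes each way by the lower array, the 10 each way with 1 sign on all routes, up to 5 members of each of 38 lists and all members past the size rule, set adipose genes, the 5 widest gaps between arrays, up to 6 each way opposite in experiment 2, and up to 8 each way past limma and the size rule. Myo16, Olfr250, 4930555G07Rik, Gltpd2, Brdt, Stra8 and Nanos2 were named after their values were seen. The split of RIKEN clones was also made after the values were seen. The comparison, the lists and the rule were chosen with earlier results of these data known. Alternatives were other array scalings, probe medians, other size rules, least squares over experiment 1, a robust prior, a variance filter, and arrays or group values left out.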

Additional observations from a re-analysis of the deposited data

How the results depend on the processing

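The positive count of 1089 on the direct arrays became 2776 with a mean of at least 0.5, 1314 to 1667 when either array was used alone, 789 under scale and 849 under quantile normalization, 816 with both arrays at least 1, and 777 by least squares over experiment 1. The negative count of 249 was 96 under scale normalization, 103 with both arrays at least 1 in size, 73 by least squares over experiment 1, 1709 with a mean of at least 0.5, and 418 to 806 with either array alone. Subtracting the dye effect gave 1087 and 249. The limma counts of 97 positive and 3 negative features became 299 and 11 under scale normalization, 307 and 17 under quantile normalization, and 959 and 209 with pairing means, which like the dye correction were chosen after seeing the data. Leaving out a group value moved them between 0 and 1001, and between 0 and 1138, and both were 0 for pairing means without the direct arrays. The medians of 16 of 38 lists had opposite signs on the arrays, 4 of them with a median of the array means of at least 0.2 in size: xenobiotic and antioxidant enzymes (-0.41 to 0.025), immediate early genes (-0.62 to 0.036), heat shock genes (-0.088 to 0.79) and inflammatory mediators (-0.20 to 0.75). By least squares over experiment 1, Bsph2 turned to -0.063 and Spink10 to -0.52. The lack of intensities limits what can be said of dim probes.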

Other observations

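Heat shock and chaperone genes had a median of 0.31 on the direct arrays, and none was past the size rule. Of 20 measured, 7 were positive and 2 negative on both arrays, against 25.2% and 23.71% of all features. The list's median was -0.52 through HF0, where 18 of 20 genes were negative, 0.31 through HF3 and 0.24 in experiment 2. Bag3, a cochaperone of HSP70, was 0.49 and 1.29, and Hspd1 and Hspe1, the mitochondrial chaperonin pair, were 0.39 and 1.24, and 0.38 and 1.06. All 3 were lower with HF4 in Cy3. Among circadian genes, Arntl, the core clock activator, was -1.16 and -0.97, and the repressor Bhlhe41 was 0.42 and 2.93. Both arrays of Arntl were close while those of Bhlhe41 were not. Arntl was 0.61 through HF0, -0.19 through HF3 and 0.54 in experiment 2.

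Of 14 exocrine pancreas genes none was past the size rule, and their median was -0.07. The 12 measured B cell genes had a median of -0.10 and the 11 mast cell genes -0.09, with none past the rule in either list. Of 9 erythroid genes, Alas2, which starts heme synthesis in erythroid cells, came nearest at -1.52 and -0.47. Fgg, a fibrinogen chain, was 1.80 and 1.98 on the direct arrays, 1.40 through HF0, 1.26 through HF3 and -0.02 in experiment 2.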
